A study of Rattus norvegicus with 6 samples.

Results

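Hox genes were read out in the renal cortex, the outer layer of the kidney that holds the glomeruli and the proximal tubules, of male Sprague-Dawley rats. From the name table of the rat genome assembly GRCr8, 38 genes with a symbol of the form Hoxa, Hoxb, Hoxc or Hoxd and a number were considered. Of these, 23 were matched through their RefSeq accession to 39 probes of the array, among 15645 named genes in all, and each gene was represented by its probe with the highest mean signal over the 6 arrays. The other 15 (Hoxa3, Hoxa4, Hoxa5, Hoxa9, Hoxa10, Hoxb1, Hoxb2, Hoxb5, Hoxb6, Hoxc6, Hoxc10, Hoxc11, Hoxc13, Hoxd8 and Hoxd11) matched no probe and were not analysed here. Per the labels, 3 rats received corn oil and 3 received carbon tetrachloride, a chlorinated solvent toxic to the liver, at 100 mg/kg/day, in both cases for 4 weeks, after purchase at an age of 5 weeks. Carbon tetrachloride is the agent given by the title and by every sample's own fields, whereas the design text names benzyl acetate, and the samples' fields were followed. One rat stands behind each single-colour array, precision is limited by having 3 arrays in a group, and the design text calls these biological replicates.

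Hox genes encode transcription factors that bind DNA through a homeodomain. They lie in 4 clusters, named by the letters a to d, and genes with the same number in different clusters are paralogues that descend from 1 ancestral gene. Low numbers are used towards the head and high numbers towards the tail of the embryo, in the order in which the genes lie on the chromosome, and adult tissues keep much of the pattern of the place they came from. In the embryonic kidney the paralogues with the number 11 are needed for the mesenchyme to induce the ureteric bud, and Hoxb7 is a classical marker of that bud and of the collecting duct it forms.

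In the rat cortex the middle of all 4 clusters was read out, while the genes with the number 13 gave no signal well above background. A gene was taken as detected where the image software marked its spot as well above background, and 16 of the 23 Hox genes were so marked on all 6 arrays, 3 on some arrays and 4 on no array. All 14 measured genes with a number from 4 to 11 were detected on all 6 arrays: Hoxa6, Hoxa7, Hoxa11, Hoxb4, Hoxb7, Hoxb8, Hoxb9, Hoxc4, Hoxc5, Hoxc8, Hoxc9, Hoxd4, Hoxd9 and Hoxd10. None of the 3 measured genes with the number 13 (Hoxa13, Hoxb13 and Hoxd13) was detected on any array. Of the 2 genes with the number 12, Hoxc12 was detected on no array and Hoxd12 on 4. At the other end, with numbers from 1 to 3, Hoxa2 and Hoxd3 were detected on all 6 arrays, Hoxb3 on 4 and Hoxd1 on 2. For scale, 76.7% of all named genes were detected on all 6 arrays and 14.7% on no array, and no test of the Hox genes against this background was made.

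**Figure D1:**
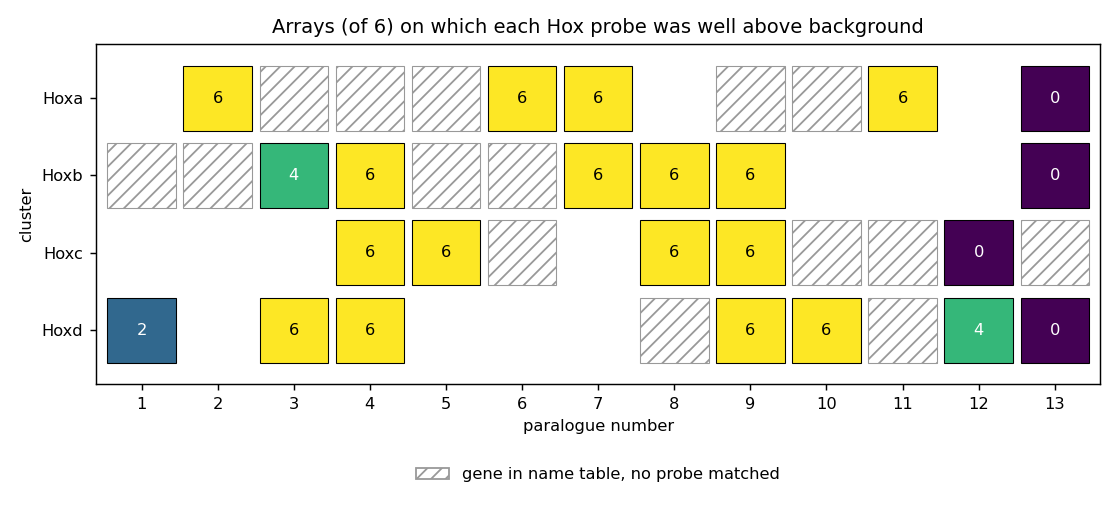
Number of arrays, of 6, on which the probe of each Hox gene was well above background, by cluster (rows) and paralogue number (columns). Hatched cells are genes with no matched probe and empty cells hold no gene considered here; the 14 measured genes from 4 to 11 all stand at 6 and the 3 measured genes with the number 13 stand at 0.

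The 4 clusters were alike in their counts. In the Hoxa cluster 4 of 5 measured genes were detected on all arrays, in Hoxb 4 of 6, in Hoxc 4 of 5 and in Hoxd 4 of 7. In the Hoxd cluster the measured genes lie in the order Hoxd13, Hoxd12, Hoxd10, Hoxd9, Hoxd4, Hoxd3 and Hoxd1, and the number of arrays with signal ran 0, 4, 6, 6, 6, 6 and 2 along it. In the Hoxa cluster, from Hoxa2 through Hoxa6, Hoxa7 and Hoxa11 to Hoxa13, it ran 6, 6, 6, 6 and 0. In the Hoxb cluster, from Hoxb13 through Hoxb9, Hoxb8, Hoxb7 and Hoxb4 to Hoxb3, it ran 0, 6, 6, 6, 6 and 4. In the Hoxc cluster, from Hoxc12 through Hoxc9, Hoxc8 and Hoxc5 to Hoxc4, it ran 0, 6, 6, 6 and 6. The unmeasured genes between these neighbours leave gaps in each series.

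The detection call belongs to a probe as well as to a gene, and the choice of flag matters at the ends. Of the 15 Hox genes with more than 1 probe, 8 had every probe detected on all 6 arrays, 3 (Hoxb13, Hoxc12 and Hoxd13) had every probe detected on no array, and 4 had probes that differed. Those 4 were Hoxb9 (6 arrays against 1), Hoxc5 (6 against 0), Hoxd12 (4 against 0) and Hoxd1 (2, 2 and 0). With the software's looser flag, positive and significant, 20 of the 23 genes passed on all 6 arrays, Hoxa13, Hoxb3, Hoxd1 and Hoxd12 among them, which left Hoxb13, Hoxc12 and Hoxd13. With a bar at the 99th percentile of the 308 negative control spots of each array, 14 passed. Hoxc5 and Hoxd3 were lost, and both fell under the bar on the array of corn oil replicate 2 only. That bar was 68.3 signal units on the array of corn oil replicate 2 and between 7.90 and 17.2 on the other arrays, and the same array had the lowest share of all probes above background, 68.5% against 70.0% to 72.1%.

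Both sides of the border at the tail end of the Hoxa and Hoxd clusters can be set out by sequence. The windows below run from 250 bases before to 50 after the annotated start of the gene (RefSeq, GRCr8), 5′ to 3′ on the strand of the gene, with each CG dinucleotide in capitals. They are shown because Hoxa11 and Hoxd10 were detected on 6 arrays and Hoxa13 and Hoxd13 on none, although Hoxa13 passed the looser flag. Hoxd12, which lies between Hoxd10 and Hoxd13 and was detected on 4 arrays, also has a window, which is not printed.
Hoxa11, chr4:82676752-82677051, minus strand: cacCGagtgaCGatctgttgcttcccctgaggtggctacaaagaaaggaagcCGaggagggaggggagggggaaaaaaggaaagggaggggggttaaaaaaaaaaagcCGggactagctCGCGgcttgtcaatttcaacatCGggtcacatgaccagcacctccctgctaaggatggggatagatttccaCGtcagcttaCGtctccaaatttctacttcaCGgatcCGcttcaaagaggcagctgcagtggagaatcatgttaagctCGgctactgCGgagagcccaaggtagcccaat
Hoxa13, chr4:82691652-82691951, minus strand: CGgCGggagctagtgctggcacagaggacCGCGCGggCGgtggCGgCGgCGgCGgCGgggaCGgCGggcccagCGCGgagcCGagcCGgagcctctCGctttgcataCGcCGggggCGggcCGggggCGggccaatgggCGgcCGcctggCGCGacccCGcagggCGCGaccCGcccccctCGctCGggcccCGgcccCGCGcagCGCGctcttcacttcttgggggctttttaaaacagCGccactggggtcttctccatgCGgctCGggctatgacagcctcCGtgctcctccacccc
Hoxd10, chr3:80001697-80001996, plus strand: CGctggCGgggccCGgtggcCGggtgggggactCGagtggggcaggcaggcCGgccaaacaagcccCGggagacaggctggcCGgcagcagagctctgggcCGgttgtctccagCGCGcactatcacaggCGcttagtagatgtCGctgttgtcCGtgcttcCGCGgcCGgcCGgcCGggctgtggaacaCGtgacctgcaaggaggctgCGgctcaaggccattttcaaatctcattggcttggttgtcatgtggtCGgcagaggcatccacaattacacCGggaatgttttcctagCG
Hoxd13, chr3:79977827-79978126, plus strand: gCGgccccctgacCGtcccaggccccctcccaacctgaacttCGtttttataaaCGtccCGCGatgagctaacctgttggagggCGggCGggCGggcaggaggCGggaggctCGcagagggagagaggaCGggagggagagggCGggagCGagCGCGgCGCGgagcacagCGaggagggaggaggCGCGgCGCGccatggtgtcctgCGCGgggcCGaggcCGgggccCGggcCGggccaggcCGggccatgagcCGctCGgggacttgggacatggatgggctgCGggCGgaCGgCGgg

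Among the 13 measured Hox genes with a window, Hoxa13 and Hoxd13 had those densest in CpG, the dinucleotide at which vertebrate DNA is methylated. The other undetected genes, Hoxb13 and Hoxc12, had no window. Hoxa13 had 42 CpG and Hoxd13 had 36, whereas the 9 genes detected on all 6 arrays for which a window was given had between 6 (Hoxc4) and 30 (Hoxa6). Hoxa11 had 13 and Hoxd10 had 24. Of the genes detected on some arrays, Hoxd12 had 16 and Hoxd1 had 30. Of all 33469 windows of the table, with a median of 7 CpG, 5.43% had at least as many as Hoxd13. A window was given for 13 of the 23 measured genes, and GC content was 76.7% for Hoxa13 and 74.7% for Hoxd13, against 44.7% to 66.0% in the 9. With only 2 undetected genes in the table this is a description and was not tested.

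Short promoter motifs were counted on both strands of the same windows. The CCAAT box (CCAAT) was in 10 of the 13 Hox windows, or 76.9%, and in 37.5% of all windows. The GC box (GGGCGG, which itself holds a CG) was in 7 of 13, or 53.8%, and in 33.1% of all, and the windows of Hoxa13 and Hoxd13 each held it 5 times. The TATA box (TATAAA) was in 1 of 13, that of Hoxd13, and in 14.2% of all windows. A composite site of PBX and Hox proteins (TGATNNAT, with N for any base) was in the windows of Hoxa2 and Hoxa7, and in 9.10% of all windows. TTTATG, a site that Cdx and posterior Hox proteins prefer, was in the window of Hoxd4 and in 12.7% of all. A match of letters is not a bound site.

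**Figure D2:**
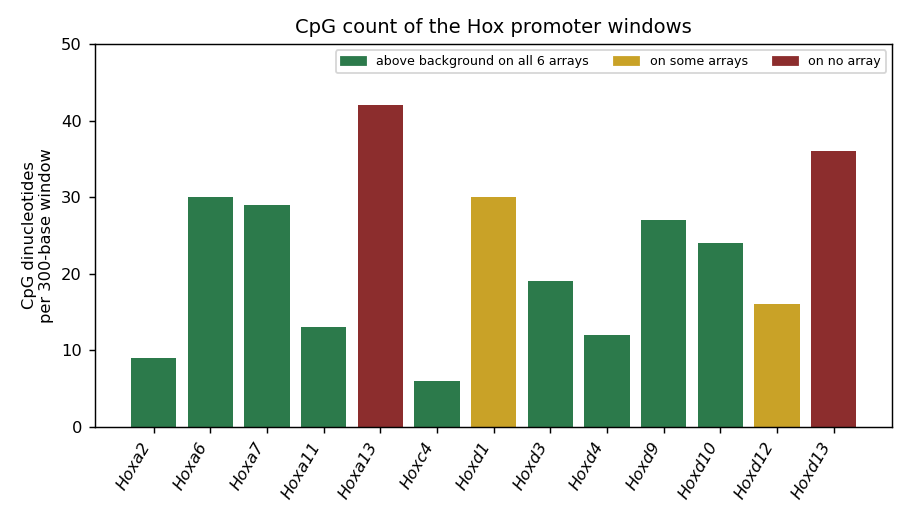
Number of CpG dinucleotides in the 300-base promoter window of the 13 measured Hox genes for which the table holds a window, coloured by the arrays on which the gene was well above background. The bars of Hoxa13 (42) and Hoxd13 (36) stand above all others, which reach at most 30.

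All values of single genes are given as log2 signal relative to the 75th percentile of the same array, so that 0 is the level of that percentile. Probes differ in how strongly they bind, so the value of 1 probe is compared between arrays. A dimmer probe does not show that its gene had less transcript than another gene. Hoxb7 had 3.97, 3.87 and 4.22 in corn oil replicates 1 to 3 and 3.90, 4.07 and 3.83 in carbon tetrachloride replicates 1 to 3. The groups overlapped, and corn oil replicate 3 was highest. Hoxd9, which acts with its neighbours in hind limb and lumbar patterning, had 3.53, 3.57 and 3.64 in corn oil and 3.59, 3.60 and 3.60 in carbon tetrachloride. It was the steadiest of the tested Hox genes, with a within-group SD of 0.039, and the treated values lay inside the control range. Hoxa7, a gene of the trunk, had 3.47, 3.29 and 3.27 in corn oil and 3.29, 3.33 and 3.27 in carbon tetrachloride, so that all but corn oil replicate 1 lay close together.

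Hoxa11, of the group needed for kidney induction, had 0.07, 0.08 and -0.09 in corn oil and -0.17, -0.11 and -0.26 in carbon tetrachloride. All 3 treated values lay below all 3 control values, with a gap of 0.025 between the groups. Hoxd10 had 1.32, 1.27 and 1.46 in corn oil and 1.16, 1.25 and 1.27 in carbon tetrachloride. The treated values were mostly the lower ones, and carbon tetrachloride replicate 3 lay just above corn oil replicate 2. Hoxb4, known from blood stem cells, had 0.26, 0.40 and 0.49 in corn oil and 0.56, 0.33 and 0.27 in carbon tetrachloride, and the ranges overlapped widely. Hoxc9, a gene of the trunk, had 0.10, -0.32 and -0.28 in corn oil and -0.36, 0.02 and -0.19 in carbon tetrachloride. Its groups overlapped as well.

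Of the genes with dimmer probes, Hoxc4 had -1.36, -1.36 and -1.14 in corn oil and -1.44, -1.14 and -1.36 in carbon tetrachloride. Hoxb8 had -1.72, -1.94 and -1.76 in corn oil and -1.92, -1.52 and -2.01 in carbon tetrachloride. Hoxd4 had -1.92, -1.99 and -1.96 in corn oil and -2.11, -2.28 and -1.72 in carbon tetrachloride. The treated values of Hoxb8 and Hoxd4 lay on both sides of the controls. Hoxc8 had -2.53, -2.79 and -2.79 in corn oil and -2.79, -2.51 and -2.98 in carbon tetrachloride. Hoxb9 had -3.09, -3.54 and -3.30 in corn oil and -3.14, -3.08 and -3.31 in carbon tetrachloride. Neither gene separated the groups. Hoxa6 had -3.47, -3.50 and -3.26 in corn oil and -3.28, -3.08 and -3.49 in carbon tetrachloride. Hoxa2, a gene of the hindbrain and the second pharyngeal arch, had -3.87, -3.93 and -3.78 in corn oil and -3.91, -3.48 and -3.77 in carbon tetrachloride. In both the highest value was that of carbon tetrachloride replicate 2.

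Near background the spread widened. Hoxd3 had -3.97, -4.24 and -4.04 in corn oil and -3.36, -4.79 and -4.13 in carbon tetrachloride, the widest within-group SD of the tested Hox genes at 0.52. Hoxc5 had -4.43, -4.85 and -3.98 in corn oil and -4.13, -4.29 and -4.17 in carbon tetrachloride, all inside the control range. Hoxd12 had -3.50, -6.21 and -3.99 in corn oil and -5.57, -5.63 and -6.24 in carbon tetrachloride, and it was above background in corn oil replicates 1 and 3 and carbon tetrachloride replicates 1 and 2. Corn oil replicates 1 and 3 stood above the other 4 arrays, and the second probe of Hoxd12 was above background on no array. Hoxb3 was above background in the same 4 samples, at -5.61 and -4.96 in corn oil and -5.15 and -5.64 in carbon tetrachloride. Hoxd1 was above background in replicate 1 of each group, at -5.24 and -5.50.

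The probes of the undetected genes stayed at the bottom of the scale. Hoxa13, used in the digits and the hindgut, ran from -7.23 to -6.66 over the 6 arrays. Hoxc12 ran from -8.25 to -7.23, Hoxd13 from -8.11 to -7.69 and Hoxb13, best known from the prostate and hindgut, from -8.26 to -7.83. These values have no order below background, and a transcript too scarce for this array would give the same reading.

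**Figure D3:**
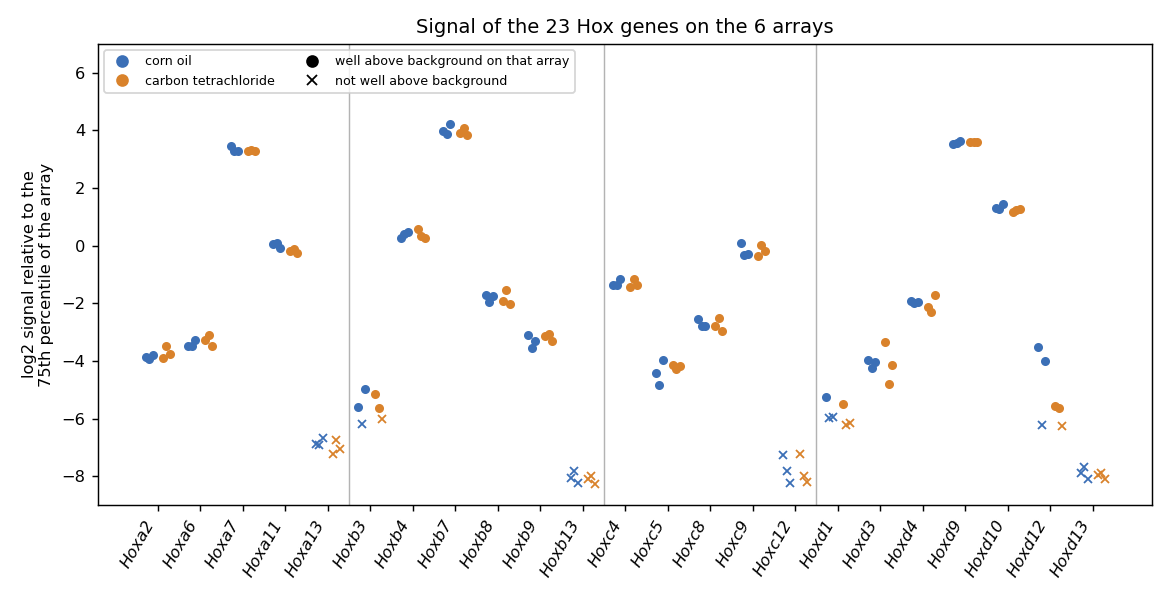
Log2 signal relative to the 75th percentile of each array (y axis) of the 23 measured Hox genes (x axis, by cluster), 1 point per rat, filled where the spot was well above background and crossed where it was not. The colours overlap for all tested genes but Hoxa11, and heights are not comparable between genes because each has its own probe.

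Whether the treatment altered these levels was asked by comparing treated with control rats. No Hox gene passed the threshold. Testing required a probe above background in all 3 rats of either group, and 16 of the 23 genes met this. In limma, 0 of the 16 passed an adjusted p of 0.05, against 0.00321% of the 31193 tested transcripts, and 1, Hoxa11, had an unadjusted p under 0.05, as did 6.3% of all tested transcripts. Fitted changes were treated minus control and ran from -0.20 (Hoxa11) to 0.22 (Hoxc5) on the log2 scale, 6 of them above and 10 below 0. Their median was -0.0089, beside 0.0077 for all tested transcripts, and without single arrays it ran from -0.075 (without corn oil replicate 2) to 0.021 (without corn oil replicate 1). Adjusted p ran from 0.792 to 0.998 in limma.

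The precision sets how far this goes. For the probe used for each gene, the 95% interval of the log2 change lay within 0.5 of 0 for 14 of the 16 genes and within 1 for all 16. The exceptions to the narrower bound were Hoxd3, from -0.87 to 0.85, and Hoxc5, from -0.32 to 0.76. The tightest was that of Hoxd9, from -0.14 to 0.17. Second probes were not counted here, and those of Hoxd3 (0.70 ± 0.38, SE) and Hoxd4 (0.26 ± 0.23) lay further from 0 than the probes used. So did those of Hoxb8 (-0.19 ± 0.16) and Hoxc4 (-0.13 ± 0.11) and, by little, Hoxa7 and Hoxd10. The second probes of Hoxb7 and Hoxd9 lay nearer to 0. The median within-group SD of the tested Hox genes was 0.168 (log2), beside 0.142 for all tested transcripts. In tissue RNA of this kind, fewer cells of a type and less RNA per cell cannot be told apart.

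Hoxa11 had the smallest p, with a log2 change of -0.20 ± 0.08 (SE, n = 3 per group), an unadjusted p of 0.0486 and an adjusted p of 0.792 in limma. Its groups did not overlap, as held in the lower direction for 5.28% of all tested transcripts, and an unadjusted p under 0.05 in that direction came with 2.63%. The change was below 0 in all 16 alternative settings, but many of these could not turn its sign. Without overlap, leaving out any 1 array keeps the treated mean lower, and several other settings used the same values. The unadjusted limma p was under 0.05 in 7 of the 16. Carbon tetrachloride replicate 3 lay alone on a second slide with a scan of its own. With the slide as a block, which equals the fit without that array, the change of Hoxa11 was -0.16 (adjusted p = 0.749 in limma, 0.633 to 0.978 over all alternatives). Stroma and fibroblast markers, of which 5 of 6 were tested, had 4 members lower and a median of -0.18, with a mean over the list of 1.99 to 2.42 in corn oil and 1.69 to 2.22 in carbon tetrachloride, and Lum was above background on no array. Leukocyte markers, 6 of 8 above background on all arrays, had 7 of 8 lower and a median of -0.37, with means over the list of -2.82 to -2.35 in corn oil and -2.95 to -2.81 in carbon tetrachloride. Of the 8, 3 had an unadjusted limma p under 0.05, all lower, beside 2.63% of all transcripts in that direction. They were Cd3g at -1.01 ± 0.15, Cd3e at -1.11 ± 0.29 and Cd8a at -0.70 ± 0.27, whereas Itgam was higher, at 1.055 ± 0.641. Other lists lay higher in the treated rats, with 5 of 5 endothelial markers higher (median 0.08, 2 at an unadjusted limma p under 0.05, Nos3 at 0.40 ± 0.07). Of the podocyte markers 4 of 5 were higher (median 0.06, 1 at an unadjusted limma p under 0.05). In that direction 3.67% of all transcripts had such a p. The list mean was 0.13 to 0.26 in corn oil and 0.25 to 0.43 in carbon tetrachloride for the endothelium, and 1.04 to 1.30 against 1.14 to 1.40 for podocytes. Of the remaining lists, all 3 tested distal tubule markers were lower (median -0.08). All 3 thick ascending limb markers (median 0.08) and 5 of 6 inner medulla and papilla markers (median 0.10) were higher. The proximal tubule, collecting duct, adrenal and adipose lists had members on both sides. In limma 0 markers of these lists passed the threshold, and the part of these cell types in the Hoxa11 value was not tested.

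Next by p were Hoxd10 at -0.12 ± 0.08, Hoxa2 at 0.14 ± 0.13 and Hoxc5 at 0.22 ± 0.22. Hoxb9 at 0.13 ± 0.13 and Hoxa6 at 0.12 ± 0.13 followed (log2 change ± SE, n = 3 per group). For each of these 5 genes the groups overlapped, and their limma adjusted p lay between 0.834 and 0.872. Single arrays moved these changes by more than 1.5 times. Hoxc5 ran from 0.0048 without corn oil replicate 2 to 0.44 without corn oil replicate 3, and Hoxb9 from 0.02 without corn oil replicate 2 to 0.24 without corn oil replicate 1. Hoxa2 was 0.02 and Hoxa6 0.02 without carbon tetrachloride replicate 2, and they reached 0.24 without carbon tetrachloride replicate 1 and 0.23 without carbon tetrachloride replicate 3. Hoxd10 was -0.07 without corn oil replicate 3. None of the 5 turned sign. The 4 paralogue groups with more than 1 tested member, numbers 4, 7, 8 and 9, are given side by side, with no test between members. Hoxb4, Hoxc4 and Hoxd4 had changes of 0.0053, -0.03 and -0.09, Hoxa7 and Hoxb7 -0.05 and -0.09, Hoxb8 and Hoxc8 -0.0086 and -0.06, and Hoxb9, Hoxc9 and Hoxd9 0.13, -0.0072 and 0.01. The 95% interval of each of these changes included 0.

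Several genes could be read with a second probe. In 8 genes both probes were tested, and in 5 of them both changes had the same sign. For Hoxd10 they were -0.12 ± 0.08 and -0.13 ± 0.10, for Hoxa7 -0.05 ± 0.08 and -0.06 ± 0.07, and for Hoxb7 -0.09 ± 0.12 and -0.05 ± 0.08. The sizes lay further apart for Hoxb8 (-0.0086 ± 0.15 and -0.19 ± 0.16) and Hoxc4 (-0.03 ± 0.11 and -0.13 ± 0.11). The probes differed in sign for Hoxd3 (-0.0091 ± 0.35 and 0.70 ± 0.38), Hoxd4 (-0.09 ± 0.15 and 0.26 ± 0.23) and Hoxd9 (0.01 ± 0.06 and -0.0016 ± 0.07). Hoxa11 had 1 matched probe, so its value has no such check here.

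**Figure D4:**
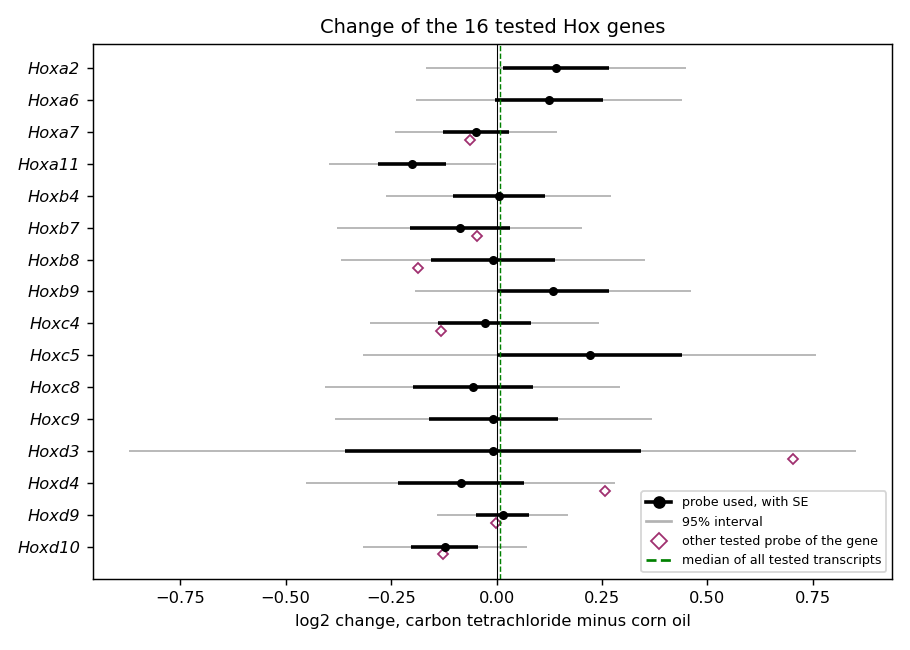
Log2 change, carbon tetrachloride minus corn oil (x axis), of the 16 tested Hox genes (y axis), with its SE (black bar) and 95% interval (grey line), and the change of a second tested probe where there is one (open diamond). The interval of Hoxa11 ends just below 0 and every other interval crosses 0; the dashed line is the median of all tested transcripts at 0.0077.

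Hox proteins bind DNA together with the homeodomain proteins of the PBX, MEIS and PKNOX families, and these cofactors were present. Of 9 listed genes 8 were matched to a probe, and all 8 were above background on all 6 arrays. In limma 0 of the 8 passed the threshold and 0 had an unadjusted p under 0.05, with 4 higher, 4 lower and a median of 0.02. Meis1 had -0.28 ± 0.13, Pknox2 0.17 ± 0.12 and Pbx3 0.11 ± 0.09 (log2 change ± SE).

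Trithorax and Polycomb proteins keep Hox genes on or off through marks on histones. All 22 of 28 listed genes that were matched to a probe were above background on all 6 arrays. In limma 0 passed the threshold and 2 of 22 had an unadjusted p under 0.05, near the 6.3% of all transcripts that did. Of the 3 with the smallest p, Ezh2, the enzyme that writes the repressive Polycomb mark, had -0.33 ± 0.09, from -3.05 ± 0.10 in corn oil to -3.37 ± 0.12 in carbon tetrachloride (mean ± SD, n = 3), with an adjusted p of 0.756 in limma. Wdr5, a subunit of the opposing methyltransferase complexes, had 0.19 ± 0.07 and the Polycomb gene Phc2 0.19 ± 0.09. The median of the list was 0.03, with 14 genes higher and 8 lower.

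Retinoic acid and Cdx proteins switch Hox clusters on in the embryo. Of 20 listed genes of these inputs 19 were matched to a probe and 18 were tested. Of these 18, 11 were higher and 7 lower, and the median of the 18 was 0.05. That median turned to -0.027 without corn oil replicate 3 and to -0.00018 without carbon tetrachloride replicate 2, and was 0.11 without carbon tetrachloride replicate 3. In limma 0 passed the threshold and 3 of 18 had an unadjusted p under 0.05, all higher, beside 3.67% of all transcripts in that direction and 6.3% in either. They were the retinoid receptor genes Rxra at 0.25 ± 0.08, Rxrb at 0.17 ± 0.07 and Rara at 0.24 ± 0.10, with adjusted p of 0.768 for Rxra and 0.792 for the others. The Cdx genes differed in signal: Cdx2 was tested and Cdx4 was above background on 4 arrays.

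Of 16 genes that act with or under Hox proteins in kidney development, 14 were matched to a probe and 12 were tested. Of the 12, 8 were higher, and the median of the 12 was 0.10. The median was 0.029 with normexp background correction and 0.03 without corn oil replicate 3. In limma 0 passed the threshold and 1 of 12 had an unadjusted p under 0.05, near the 6.3% of all transcripts that did. It was Itga8, an integrin gene of the metanephric mesenchyme, at 0.31 ± 0.11 and an adjusted p of 0.774. Pax8 had 0.20 ± 0.09 and Wnt11 0.19 ± 0.10. Osr1 was above background on no array and Ret, the receptor of the ureteric bud, on 3.

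The genes that flank the clusters were above background on all 6 arrays wherever they were matched to a probe, 12 of 14. That includes Evx1, beside the undetected Hoxa13. In limma 0 of the 12 passed the threshold and 2, both lower, had an unadjusted p under 0.05, beside 2.63% of all transcripts in that direction and 6.3% in either. Skap2, at the end of the Hoxa cluster away from Hoxa13, had -0.16 ± 0.06 and Lnpk, beyond Hoxd13, had -0.17 ± 0.07, and Calcoco1 had 0.09 ± 0.07. The median was -0.02, with 6 genes higher and 6 lower, and turned to 0.00027 without carbon tetrachloride replicate 2.

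**Figure D5:**
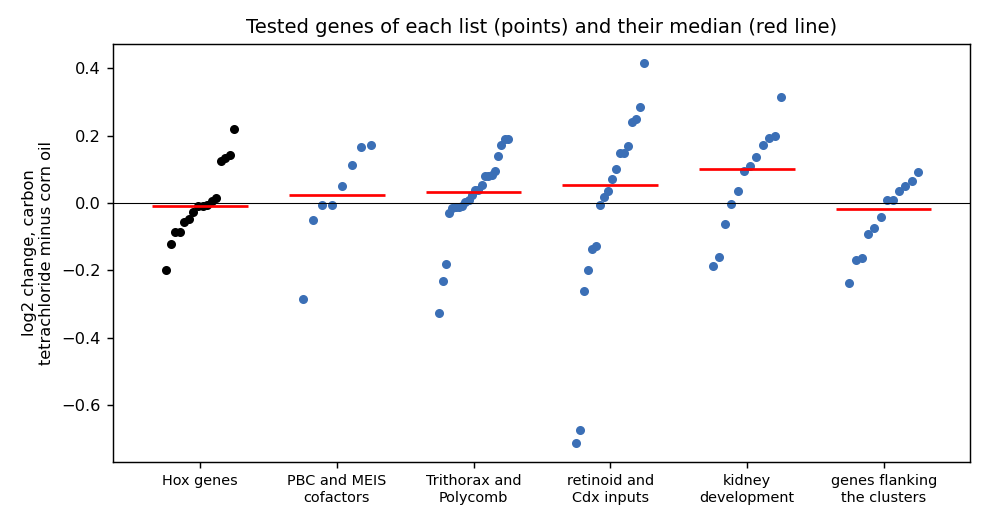
Log2 change, carbon tetrachloride minus corn oil (y axis), of the tested Hox genes and of the tested genes of each list (x axis), 1 point per gene in order of size, with the median as a red line. The medians lie between -0.02 for the flanking genes and 0.10 for the kidney development genes (0.03 without corn oil replicate 3), and no gene shown passed the threshold.

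The tissue was checked against markers. All 6 proximal tubule, 3 thick ascending limb, 5 podocyte and 6 collecting duct markers matched to a probe were above background on all 6 arrays. The 6 genes listed for the inner medulla and papilla, which are deeper layers, were too. How far those 6 are particular to these layers was not tested. All 5 endothelial markers were too, and 3 of 4 distal tubule markers, Pvalb being above background on no array. The mean of the collecting duct markers ran from 3.30 to 3.44 in corn oil and from 3.34 to 3.52 in carbon tetrachloride. Of 5 genes on the adrenal list Cyp17a1 and Th were above background on all 6 arrays and Cyp11b1, Cyp11b2 and Star on none. How well each of these marks adrenal tissue of the rat was not tested. Of the 4 adipose markers matched to a probe Adipoq, Cidec and Fabp4 were above background on all 6 arrays and Lep on none. Which cell types hold the Hox transcripts cannot be read from tissue RNA.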

How the data were processed

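Cy3-labelled RNA from the renal cortices of 6 rats was hybridised to 1-colour Agilent arrays. The scanner files deposited by the authors hold spot intensity extracted with Agilent Feature Extraction 10.7.1.1 (per the file headers). A value table of linear intensity, also deposited by the authors, served as an alternative. It holds 0 columns of other samples.

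Log2 of the processed signal minus the 75th percentile of each array was used. Left out were 1439 control spots and spots with an outlier flag, 0 to 25 per array. Of 61537 probes 28206 (45.8%) were named by accession, without version, through the RefSeq table of GRCr8. The array grid rests on another build, so array features carry no coordinates. Probes above background on all arrays of a group entered a two-sided limma test (version 3.58.1, run in R 4.3.3, lmFit then eBayes, with Benjamini-Hochberg adjustment over 31193 transcripts), 1 probe per gene or accession. Intervals are those of limma. Second probes were fitted with each probe on its own.

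The rule for naming genes took every Hox gene considered, detail for the 6 of smallest p and for groups without overlap, and 3 genes per list. A gene of the family is not reported here. Members and lists were chosen with earlier results of these data known. Arrays correlated at 0.9907 to 0.9937 across all pairs of both groups. Samples with the same replicate number did not deviate together (correlations of -0.097 to -0.023). No pairing by number was seen, although these correlations cannot show that there was none. The code was tested on simulated data. Alternatives were normexp on the median spot signals, other scalings, filters, probe rules, moderation, blocks and fits without each array.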

Additional observations from a re-analysis of the deposited data

How the results depend on the processing

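In limma 0 Hox genes passed the threshold in any of the 16 alternative settings, and the lowest adjusted p of any was 0.633. The count of transcripts past it, 1, was 0 with normexp, without a filter, with the filter on all 6 arrays, with an eBayes trend and robust fitting, under the replicate block and with the slide block, and 0 to 2 without single arrays; the cause was not tested. Within the replicate block the change of Hoxa11 was -0.20 with an unadjusted limma p of 0.0553, and no call of a Hox gene changed. Samples of the same number had not been seen to deviate together. With the slide block Hoxd4, and without corn oil replicate 3 Hoxc5, came to an unadjusted p of 0.0355 and 0.0313. Of the 16 tested genes 10 turned sign in at least 1 setting, none of them called: with normexp Hoxb4 to -0.015, Hoxb8 to 0.0026 and Hoxd9 to -0.018; with quantile normalization Hoxd3 to 0.016; with probes averaged Hoxd3 to 0.347 and Hoxd4 to 0.0865; with the slide block Hoxb8 to 0.0869, Hoxc8 to 0.0523 and Hoxd3 to 0.011. Without single arrays the log2 changes ranged as follows: Hoxa7 -0.0848 to 0.0136, Hoxb4 -0.0832 to 0.0643, Hoxb7 -0.16 to 0.013, Hoxb8 -0.156 to 0.0869, Hoxc4 -0.115 to 0.0429, Hoxc8 -0.178 to 0.0523, Hoxc9 -0.106 to 0.126, Hoxd3 -0.377 to 0.339, Hoxd4 -0.244 to 0.0376 and Hoxd9 -0.0101 to 0.0444. The cause of these turns was not tested; the 95% interval of each of these genes included 0. The number of detected Hox genes, 16, was 14 to 20 under other flags and probe rules and 16 without any single array. Counts in the lists stayed at 0 under the alternatives run, which were normexp, quantile normalization, both blocks and the fits without single arrays. Dim spots limit the calls at the ends of the clusters.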
